A study of Mus musculus with 36 samples.

Results

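The comparison described here asks which responses to dexamethasone (Dex), a synthetic glucocorticoid, are lost, kept or gained when the D loop of the glucocorticoid receptor (GR) carries a point mutation. It rests on 12 of the 36 RNA-seq libraries of the series, all from primary mouse embryonic fibroblasts (MEFs) of the FVB/NJ strain and all from sequencing run 1. Of these, 6 came from GR wt/wt cells, with the unmodified receptor, and 6 from GR D/D cells, in which an alanine of the D loop in the DNA-binding domain is replaced by threonine in both copies of Nr3c1. In each genotype 3 libraries came from cells given the solvent (vehicle) and 3 from cells given 1 µM Dex for 5 h. The authors describe 3 cultures for each genotype, each derived from a different mouse. Further run 1 libraries, with 3 per treatment, came from GR D+L/D+L cells, which carry the D mutation and a second substitution, isoleucine to alanine, in the ligand-binding domain, and from GR ko/ko cells, which lack the receptor. The labels give FVB/NJ for these libraries as well, whereas the authors' methods place the GR knockout colony on another strain. These further run 1 libraries shared the estimate of spread. Run 2 held further GR wt/wt libraries and GR L/L libraries, with the ligand-binding domain mutation alone, and whether its GR wt/wt cultures were those of run 1 is not given in the sources used here. Every cell of a mutant culture carries its alleles from the germ line. The rule for the members was the labels and not a measured value.

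GR is a ligand-activated transcription factor. Once bound by a glucocorticoid it moves to the nucleus, where it can bind as a dimer to palindromic glucocorticoid response elements in the DNA and raise nearby genes, or lower genes, many of them inflammatory, that are driven by other factors such as NF-kB and AP-1. The D loop lies in the second zinc finger and forms part of the contact between paired DNA-binding domains. GR D/D mice have for that reason long been used to ask which glucocorticoid responses require this contact.

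The response of a genotype is given as the log2 fold change of Dex against vehicle, and the interaction as the GR D/D response minus the GR wt/wt response, so that a raised gene with a weaker response in GR D/D has a negative interaction. Both carry their standard error, with n = 3 libraries in each group. Levels are given as CPM, counts scaled to the size and composition of each library, and are compared between libraries and not between genes. A gene passed a test at a Benjamini-Hochberg adjusted p of at most 0.05 over the 14817 genes tested, and a response was called where the gene passed and its absolute log2 fold change was at least 1. The 12 libraries held between 15280166 and 19102035 counts.

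Some features of the 12 libraries stand beside all results. Of 14 fibroblast markers none was at 0 in any group, and their summed level ranged from 41600 to 45200 CPM in GR wt/wt and from 32580 to 47230 CPM in GR D/D, both ends of the latter range being vehicle libraries. The summed level of 15 macrophage markers was 227 to 406 CPM in the GR wt/wt libraries and 808 to 976 CPM in the GR D/D libraries. In edgeR none of the 15 passed the interaction test, and none did at an unadjusted p of at most 0.05 or in DESeq2. Over all 12 libraries the summed level was 459 to 750 CPM for 12 skeletal muscle markers, 106 to 150 CPM for 10 neural, 27.4 to 41.2 CPM for 12 cartilage, 8.88 to 21.9 CPM for 10 endothelial and 11.1 to 15.8 CPM for 11 epithelial markers, with Myf5 and Myod1, the regulators that define muscle, at 0 in every group. Kdr, an endothelial marker, was the 1 member of these 5 lists past the interaction test. Fewer cells of a type and less RNA per cell cannot be told apart in such bulk samples. Under vehicle 1480 genes (9.99% of those tested) already differed between the genotypes, 760 higher (5.13%) and 720 lower (4.86%) in GR D/D. The vehicle library of GR wt/wt replicate 2 stood nearer to the Dex libraries than the other vehicle libraries of its group did. Over 296 genes that Dex raised in run 2 GR wt/wt cells, its level exceeded the mean of the other 2 vehicle libraries by a median log2 difference of 0.125, against differences of -0.075 to 0.024 in the other 5 vehicle libraries. Without it 448 genes passed the interaction described below in place of 510, with 52 lost, 65 weakened, 82 kept and 6 gained responses. The vehicle libraries of GR D/D differed most within their group, with a mean chi-square between pairs of 9.12 to 29.4, against 1.62 to 4.59 in the other groups. Without vehicle replicate 3 of GR D/D 670 genes passed the interaction, 363 lower and 307 higher in GR D/D.

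Dex changed fewer genes strongly in GR D/D than in GR wt/wt cells. In GR wt/wt 293 genes (1.98% of those tested) were called, 183 raised (1.24%) and 110 lowered (0.742%). The mutant had 150 called genes (1.01%), 101 raised (0.682%) and 49 lowered (0.331%). Without the fold limit 2155 genes passed in GR wt/wt and 1854 in GR D/D, and 901 passed in both in the same direction. The interaction itself passed for 510 genes (3.44%), 334 of them lower (2.25%) and 176 higher (1.19%) in GR D/D. Among the 510, 409 passed in GR wt/wt, and 393 of those had a change in GR D/D that was smaller or of opposite direction. The absolute log2 difference of the 510 had a median of 0.53, and 90 reached 1.

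Genes called in GR wt/wt were sorted by these tests. A response was lost where the interaction passed towards 0 and the gene did not pass in GR D/D in the same direction, weakened where the interaction passed towards 0 and the gene still passed in GR D/D, and kept where the gene passed in GR D/D in the same direction and the interaction did not pass. Of the 183 raised genes, 42 were lost (23%), 41 weakened (22.4%) and 39 kept (21.3%). Of the 110 lowered genes, 6 were lost (5.45%), 15 weakened (13.6%) and 34 kept (30.9%). A further 60 raised and 55 lowered genes were undecided, and 1 raised gene, Gprc5b, had a larger response in GR D/D. The undecided genes were weakly expressed, with a median mean count of 11.6 against 57.1 in kept, 83 in lost and 595 in weakened genes. Lost and weakened differ only in whether the GR D/D change passed in the GR wt/wt direction. A lost response therefore does not show that no change remained. Kept says only that a difference was not detected: the 95% interval of the interaction lay within 0.5 of 0 in 9 of the 73 kept genes. Whether the shares differed between raised and lowered genes was not tested.

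**Figure D1:**
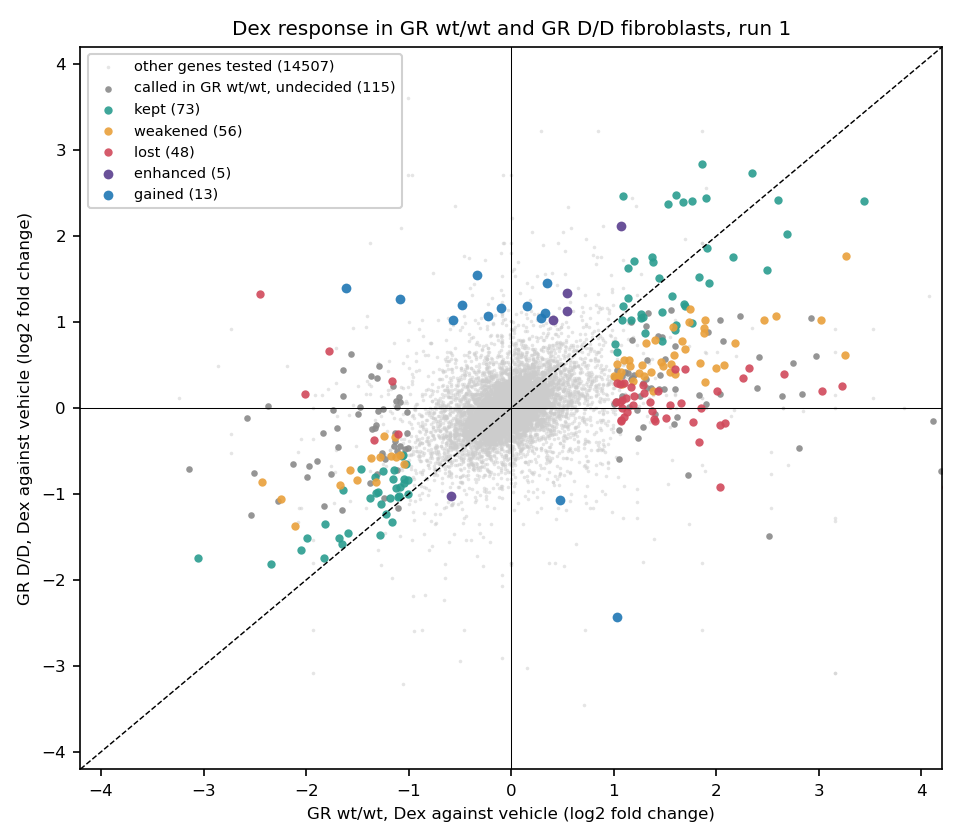
Dex against vehicle (log2 fold change) in GR wt/wt cells (horizontal axis) and in GR D/D cells (vertical axis), 1 point for each gene tested, coloured by class with the number of genes in the legend and with the line of equal response dashed. The 42 lost raised genes lie along the horizontal axis at the right, the 73 kept genes near the dashed line, and the 13 gained genes beyond a log2 change of 1 on the vertical axis. The axes end at 4.2 on either side, and 10 genes lie outside.

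Since the same GR wt/wt libraries both selected these genes and entered the interaction, the sizes were also read on genes chosen elsewhere. The GR wt/wt libraries of run 2 were fitted apart, and the genes called there were followed in run 1, in libraries that had no part in the choice. There 679 genes (4.46%) were called, of which 534 were tested in run 1. For the 296 raised genes the median response on the log2 scale was 0.86 in GR wt/wt and 0.34 in GR D/D of run 1, and the median in GR D/D was 39.5% of that in GR wt/wt. For the 238 lowered genes the medians were -0.63 and -0.46, and the GR D/D median was 72% of the GR wt/wt median. The medians over all genes tested were -0.0015 and -0.00097.

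The medians of single libraries showed the same order. Among the raised genes, each of the 3 GR wt/wt Dex libraries, set against the mean of its vehicle libraries, gave a median log2 difference between 0.80 and 0.83. The 3 GR D/D libraries gave 0.33 to 0.39, the 3 GR D+L/D+L libraries 0.23 to 0.28, and the 3 GR ko/ko libraries -0.035 to 0.019. Among the lowered genes the ranges were -0.62 to -0.52 in GR wt/wt, -0.42 to -0.34 in GR D/D, -0.31 to -0.26 in GR D+L/D+L and 0.0047 to 0.033 in GR ko/ko. GR wt/wt and GR D/D did not overlap in either direction. The values of a genotype share 1 mean of vehicle libraries, so their ranges leave out the spread of the vehicle libraries. Over the lowered genes, single vehicle libraries of GR wt/wt and GR D/D differed from the others of their group by median log2 differences of -0.067 to 0.068. The interaction passed towards 0 for 87 of the 296 raised genes and away from 0 for 2 of them, together 30.1%, and for 30 and 2 of the 238 lowered genes, together 13.4%, where it passed for 3.44% of all genes.

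**Figure D2:**
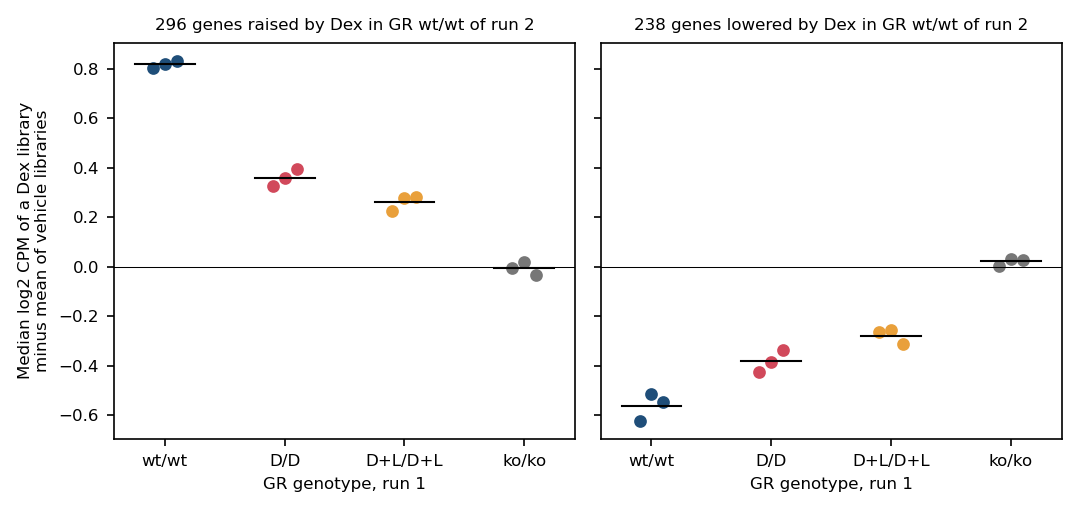
Median log2 CPM of each run 1 Dex library minus the mean of the vehicle libraries of its genotype, over the 296 genes raised (left) and the 238 genes lowered (right) by Dex in run 2 GR wt/wt cells. Each point is 1 library and each bar the mean of 3. The GR wt/wt points lie farthest from 0 in both panels, followed by the D mutant, the double mutant and the knockout, and the gap from GR wt/wt to the D mutant is wider for raised than for lowered genes.

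The lost responses were largely inductions. Suox, sulfite oxidase of the mitochondria, was at 16.5, 19.0 and 18.5 CPM in the GR wt/wt vehicle libraries and at 73.5, 73.9 and 69.2 CPM after Dex. The mutant had 19.7, 20.8 and 19.7 CPM with vehicle and at 24.03, 23.4 and 21.7 CPM with Dex. The groups did not overlap in either genotype, but the log2 response fell from 2.00 ± 0.06 to 0.20 ± 0.07, with an interaction of -1.80 ± 0.09 (adjusted p = 9.95e-14). The GR D/D response of Suox was just outside the threshold (adjusted p = 0.0502), and it counted as weakened without Dex replicate 3 of GR D/D or without vehicle replicate 1 or 2 of GR wt/wt.

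Jade2, a component of a histone acetyltransferase complex, was at 6.17, 6.57 and 8.01 CPM with vehicle and at 23.2, 24.3 and 23.6 CPM with Dex in GR wt/wt. The mutant values were 9.25, 8.23 and 8.98 CPM and 7.93, 8.21 and 7.39 CPM. The Dex libraries of GR D/D stood below their vehicle libraries, and the interaction was -1.94 ± 0.13 (adjusted p = 3.53e-11). Pdk4, the kinase that shuts off pyruvate dehydrogenase and turns cells from glucose to fat oxidation, showed the same pattern. Its level rose from 5.86, 5.58 and 4.66 CPM to 19.3, 19.4 and 19.1 CPM in GR wt/wt. It was 6.06, 4.79 and 6.45 CPM with vehicle and 6.23, 6.08 and 4.90 CPM with Dex in GR D/D, where the groups overlapped and the log2 response was -0.0012 ± 0.12.

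The other lost inductions with the smallest interaction p were Pmaip1, which encodes the proapoptotic protein Noxa, the exchange-factor genes Dennd4a and Dennd2a, the semaphorin receptor gene Plxna2, the secreted-protein gene Crispld2, Tcp11l1, and the p21-activated kinase gene Pak3. Their log2 fold changes in GR wt/wt lay between 1.06 (Dennd2a) and 1.40 (Pmaip1), and in GR D/D between -0.15 (Pmaip1) and 0.17 (Crispld2). For each of these 7 the interaction passed in every fit that left out 1 of the 12 libraries. Crispld2 was also lower in GR D/D under vehicle (log2 difference -0.55, adjusted p = 1.41e-06) and counted as weakened without vehicle replicate 3 of GR D/D. Myocd, the coactivator of serum response factor in smooth muscle, was raised by 2.66 ± 0.16 in GR wt/wt and changed on that scale by 0.39 ± 0.23 in GR D/D (interaction adjusted p = 4e-06). Lost repressions were few. Nptx1, a neuronal pentraxin, was lowered by 1.16 on the log2 scale in GR wt/wt, where it fell from 7.10, 4.07 and 6.15 CPM to 2.38, 2.55 and 2.82 CPM, but it stood at 2.59 to 3.00 CPM with vehicle in GR D/D, against 2.38 to 2.82 CPM in the GR wt/wt Dex libraries. Without vehicle replicate 1 of GR wt/wt it was no longer called there. Mmp10, a stromelysin, likewise was lower in GR D/D under vehicle (log2 difference -1.30, adjusted p = 1.33e-08), and its interaction of 0.81 ± 0.19 missed the threshold without Dex replicate 2 (0.70, adjusted p = 0.0725) or 3 (0.72, adjusted p = 0.0619) of GR D/D. It was no longer called in GR wt/wt without Dex replicate 1 of that genotype.

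The weakened responses included genes much used as readouts of GR. Mt2, one of the metallothioneins that bind zinc and copper, rose from 47.3, 53.1 and 46.6 CPM to 447, 465 and 486 CPM in GR wt/wt. In GR D/D it rose from 48.8, 47.0 and 32.9 CPM to 58.0, 67.8 and 71.8 CPM. The Dex libraries stood above the vehicle libraries in both genotypes, but the log2 response was 3.25 ± 0.09 against 0.62 ± 0.09, with an interaction of -2.63 ± 0.13 (adjusted p = 8.95e-14). Its neighbour Mt1 had 1.89 ± 0.06 and 0.30 ± 0.06. Both are short members of 1 gene family, and how reads shared between copies were treated beyond the restriction to unique alignments is not given in the sources used here.

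Fkbp5, the immunophilin that lowers the affinity of GR for its ligand, was at 45.9, 64.6 and 45.5 CPM with vehicle and at 314, 314 and 302 CPM with Dex in GR wt/wt. In the mutant it was at 51.9, 54.5 and 52.8 CPM and at 114, 110.5 and 110.4 CPM. Fkbp5 was still raised in GR D/D (log2 fold change 1.07 ± 0.08 against 2.58 ± 0.08). Tsc22d3, which encodes the anti-inflammatory protein GILZ, went from 24.1, 28.0 and 22.9 CPM to 89.2, 90.8 and 87.9 CPM in GR wt/wt and from 25.6, 25.5 and 24.9 CPM to 35.9, 35.1 and 38.0 CPM in GR D/D. Its GR D/D response of 0.52 ± 0.07 was 28.2% of the GR wt/wt response of 1.84 ± 0.07. Adamts1, a protease of proteoglycans, and Tgm2, transglutaminase 2, were also weakened, with log2 fold changes of 2.18 and 1.38 in GR wt/wt and of 0.75 and 0.20 in GR D/D. Among lowered genes, Has2, the main hyaluronan synthase of fibroblasts, changed by -1.51 ± 0.06 and -0.84 ± 0.06, the orphan receptor gene Nr4a1 by -1.36 and -0.58, and the thrombomodulin gene Thbd by -1.12 and -0.56. These 9 genes kept their class in every fit without 1 library.

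**Figure D3:**
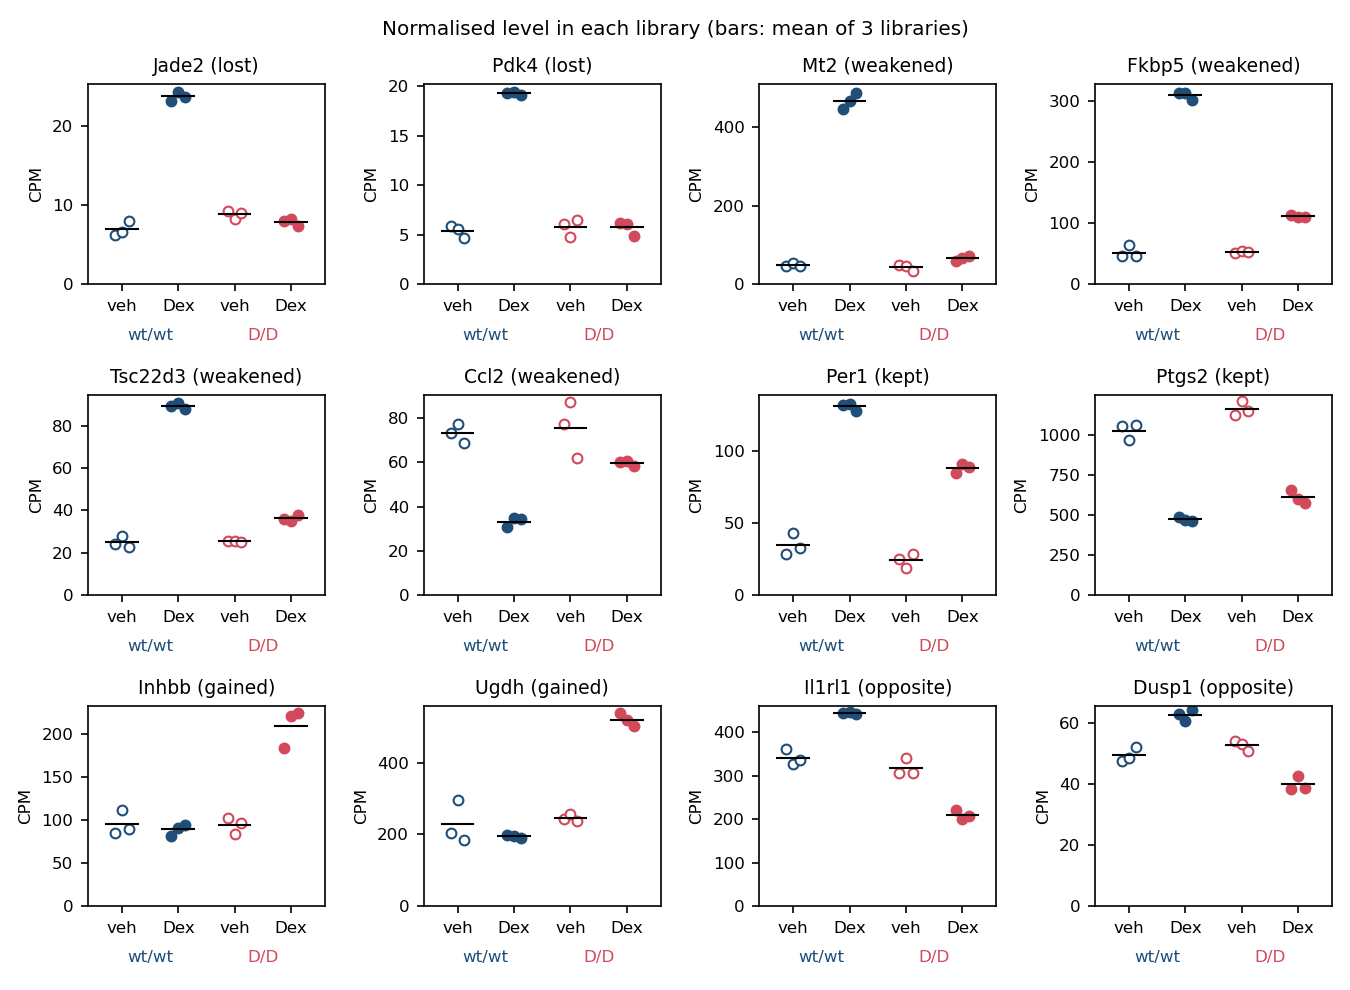
Normalised level (CPM, axis from 0) of 12 genes in each library of GR wt/wt (blue) and GR D/D (red), with open circles for vehicle, filled circles for Dex and bars for the mean of 3 libraries. The GR D/D Dex libraries of Jade2 and Pdk4 stand among the vehicle libraries, those of Mt2, Fkbp5 and Tsc22d3 between vehicle and GR wt/wt Dex, those of Inhbb and Ugdh above all other groups, and those of Il1rl1 and Dusp1 below all other groups.

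The start regions of these genes were searched for response element letters, because the D loop contact concerns paired receptors on palindromic DNA. RefSeq windows of 300 bases, 250 before to 50 after the start (build GRCm38.p6), were held for 10849 of the genes tested, and many response elements lie farther away. The spaced core ACANNNTGT, which reads the same on both strands, was found in the window of 574 genes (5.29%). It was found in 5 of 33 lost raised genes (15.2%), 8 of 32 weakened raised genes (25.0%), 2 of 23 kept raised genes (8.7%), 3 of 21 kept lowered genes (14.3%) and none of 9 weakened lowered genes. The full palindrome, AGAACA followed after 3 bases by its reverse complement, was held by 1 gene of the 10849, Sgk1, the kinase that promotes sodium uptake and cell survival, whose response was weakened (log2 fold change 1.37 ± 0.06 in GR wt/wt and 0.41 ± 0.06 in GR D/D). The single hexamer AGAACA, searched on both strands and contained in the full palindrome, was found in 1596 genes (14.7%), in 4 lost raised genes (12.1%), 9 weakened raised genes (28.1%), 2 kept raised genes (8.7%), 5 kept lowered genes (23.8%) and 1 weakened lowered gene (11.1%). A form between the core and the full palindrome asks for a guanine 2 bases before the core and a cytosine 2 bases after it. It was found in 41 genes (0.378%). Among raised genes it was found in 2 lost (6.06%), 3 weakened (9.38%) and 2 kept genes (8.7%). No kept lowered or weakened lowered gene held it. Whether the shares of any of these matches differed between the classes was not tested. A match is a description of letters, not of binding. The bases before the start are printed for Sgk1 and for the gene with the highest mean count among lost, weakened and kept genes that held the core before the start, which were chosen after their values were seen. Capitals mark the core.
Suox (lost, raised), chr10:128673919-128674168, minus strand: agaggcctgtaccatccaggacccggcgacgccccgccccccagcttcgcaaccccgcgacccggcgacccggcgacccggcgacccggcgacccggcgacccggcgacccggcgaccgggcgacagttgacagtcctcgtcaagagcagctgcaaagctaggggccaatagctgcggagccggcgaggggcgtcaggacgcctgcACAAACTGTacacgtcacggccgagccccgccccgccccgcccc
Mt1 (weakened, raised), chr8:94178839-94179088, plus strand: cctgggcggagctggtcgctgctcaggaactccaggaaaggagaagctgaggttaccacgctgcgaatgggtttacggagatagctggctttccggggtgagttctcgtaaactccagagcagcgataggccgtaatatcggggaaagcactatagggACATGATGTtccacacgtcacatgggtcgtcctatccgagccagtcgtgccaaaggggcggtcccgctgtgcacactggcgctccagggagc
Sgk1 (weakened, raised), chr10:21993640-21993889, plus strand: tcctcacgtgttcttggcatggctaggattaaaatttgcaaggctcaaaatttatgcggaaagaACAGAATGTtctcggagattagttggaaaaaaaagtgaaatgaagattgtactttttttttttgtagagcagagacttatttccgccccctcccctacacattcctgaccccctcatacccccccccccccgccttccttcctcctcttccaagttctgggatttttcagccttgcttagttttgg
Ccsap (kept, lowered), chr8:123858876-123859125, minus strand: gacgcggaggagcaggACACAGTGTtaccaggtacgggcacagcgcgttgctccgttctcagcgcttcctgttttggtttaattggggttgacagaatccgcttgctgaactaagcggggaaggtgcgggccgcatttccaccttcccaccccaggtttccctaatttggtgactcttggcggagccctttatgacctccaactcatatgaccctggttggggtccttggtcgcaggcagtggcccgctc
In Sgk1 the core with its 3 flanking bases on either side reads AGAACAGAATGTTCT, in Mt1 it reads GGGACATGATGTTCC, in Suox TGCACAAACTGTACA, and in Ccsap AGGACACAGTGTTAC. Ccsap, which encodes a protein of centrioles and spindles, was lowered by 1.02 on the log2 scale in GR wt/wt and by 0.65 in GR D/D.

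Per1, a repressor of the clock that glucocorticoids induce directly, had a kept response. It was at 28.5, 42.9 and 32.8 CPM with vehicle and at 132, 132 and 127.5 CPM with Dex in GR wt/wt. In GR D/D it was at 25.3, 19.1 and 28.4 CPM and at 84.8, 90.7 and 88.3 CPM. The level after Dex was lower in GR D/D, and so was the level under vehicle (log2 difference -0.52, adjusted p = 0.00174), whereas the response was 1.91 ± 0.10 in GR wt/wt and 1.86 ± 0.10 in GR D/D. The interaction of -0.05 had a 95% interval of -0.34 to 0.23. Ablim1, an actin-binding LIM protein, had responses of 1.44 ± 0.08 and 1.52 ± 0.09, with an interval of the difference of -0.17 to 0.32, and its relative Ablim3 had 2.35 and 2.73, or 2.79 and 2.74 without vehicle replicate 2 of GR wt/wt. Adm, the vasodilator peptide adrenomedullin, had 1.26 and 1.05.

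The kept responses of Cdh6 and Cnr1 had estimates that depended on 1 library. Cdh6, a cadherin, was raised by 1.77 ± 0.15 in GR wt/wt and by 2.40 ± 0.16 in GR D/D, and Cnr1, the cannabinoid receptor, by 1.67 ± 0.14 and 2.40 ± 0.16. Neither interaction passed (adjusted p = 0.126 and 0.0701). In both genes vehicle replicate 2 of GR wt/wt was the highest of its group, at 62.4 CPM for Cdh6 against 27.6 and 31.2 CPM, and at 8.93 CPM for Cnr1 against 5.42 and 5.90 CPM. Without that library the responses of Cdh6 were 2.22 and 2.41, with an interaction of 0.18 (adjusted p = 0.623) in place of 0.63, and those of Cnr1 1.93 and 2.40, with an interaction of 0.48 (adjusted p = 0.351). With that library in the fit, Cdh6 passed the interaction without vehicle replicate 1 or 3 of GR wt/wt (adjusted p = 0.00919 and 0.0357), and Cnr1 without vehicle replicate 1 of GR wt/wt or 3 of GR D/D (adjusted p = 0.0299 and 0.0431).

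Repression of Ptgs2, the inducible prostaglandin synthase COX-2, was kept. It fell from 1053, 966 and 1061 CPM to 486, 467 and 464 CPM in GR wt/wt, and from 1123, 1208 and 1146 CPM to 657, 597 and 574 CPM in GR D/D. The log2 responses were -1.12 ± 0.05 and -0.93 ± 0.05, and the interval of the difference ran from 0.04 to 0.35. Npr3, the clearance receptor of natriuretic peptides, was lowered by 1.65 and 1.58 on the log2 scale, Gjb2, a connexin, by 2.05 and 1.66, and Stc1, the secreted glycoprotein stanniocalcin, by 2.35 and 1.81. Gjb2 was higher in GR D/D under vehicle (log2 difference 1.25, adjusted p = 1.41e-10). The interactions of Per1, Ablim1, Ablim3, Adm, Ptgs2, Npr3, Gjb2 and Stc1 did not pass in any fit without 1 library.

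Few responses were gained. A gained gene was called in GR D/D, passed the interaction in that direction, and did not pass in GR wt/wt in that direction. There were 13, of which 11 were raised. Inhbb, the beta B subunit of activins and inhibins, was at 85.4, 112 and 89.3 CPM with vehicle and at 81.4, 91.2 and 94.9 CPM with Dex in GR wt/wt, where the groups overlapped. In the mutant it was at 102, 83.5 and 96.4 CPM and at 184, 221 and 225 CPM. The log2 response was -0.10 ± 0.09 in GR wt/wt and 1.16 ± 0.09 in GR D/D, and the interaction was 1.26 ± 0.12 (adjusted p = 4.82e-08). Ugdh, which makes the UDP-glucuronate used for hyaluronan and other glycosaminoglycans, was at 203, 297 and 185 CPM and 198, 196 and 189.8 CPM in GR wt/wt, and at 242, 258 and 238 CPM and 538, 519 and 501 CPM in GR D/D. Every GR D/D Dex library of Ugdh stood above all 9 others. Mgp, the matrix inhibitor of calcification, had log2 fold changes of 0.16 ± 0.14 and 1.19 ± 0.14 (interaction adjusted p = 0.00123). Inhbb, Ugdh and Mgp stayed gained in every fit without 1 library. In GR D+L/D+L cells Inhbb was raised by 1.21 (adjusted p = 8.5e-10), Mgp by 0.62 (adjusted p = 0.00205) and Ugdh by 0.50 (adjusted p = 0.000471).

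Enhanced responses, called in GR D/D, past the test in GR wt/wt in the same direction and larger in GR D/D, numbered 5. They were Gprc5b, an orphan receptor (1.07 ± 0.14 in GR wt/wt and 2.12 ± 0.13 in GR D/D), Hip1r, an endocytic adaptor (0.54 and 1.34), Adcy1, an adenylyl cyclase (0.40 and 1.03), Tmem119, a membrane protein of bone-forming cells and microglia (0.54 and 1.13), and the growth factor gene Fgf7, which was lowered (-0.59 and -1.03). Tmem119 was named after its values were seen. Vehicle replicate 2 of GR wt/wt was the highest of its group for Gprc5b, at 37.8 CPM against 19.3 and 17.9 CPM. Without it the GR wt/wt response of Gprc5b was 1.5 and the interaction 0.63 (adjusted p = 0.000111) in place of 1.05, and the 5 genes stayed enhanced. Without vehicle replicate 2 of GR D/D, Adcy1 and Fgf7 no longer reached the fold limit there, nor did Adcy1 without Dex replicate 3 of GR D/D.

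Without vehicle replicate 2 of GR wt/wt 6 genes were gained in place of 13, and without Dex replicate 3 of GR D/D 8 were. Of the 13, Acp7, Cx3cr1, Gjb5, Inhbb, Mgp and Ugdh remained without the former. Ccl3, Ccl9, Gm20257, Gm43311, H2-Aa, Il34 and Sned1 did not. These genes were named after their values were seen. Cx3cr1 and H2-Aa were the 2 lowered genes, and the others were raised. Ccl3 and Ccl9, chemokines made by macrophages, Cx3cr1, the receptor of fractalkine, and H2-Aa, a class II histocompatibility chain, stand beside the macrophage markers, whose summed level was higher in GR D/D. Cx3cr1 was also higher in GR D/D under vehicle, by 2.28 on the log2 scale. The part of macrophages in these gains was not tested.

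Responses of opposite direction were a small further group. In 31 genes both genotypes passed in opposite directions with a passing interaction, 19 raised and 12 lowered in GR wt/wt. Il1rl1, the receptor of interleukin 33, was at 361, 326 and 335 CPM with vehicle and at 444, 446 and 440.3 CPM with Dex in GR wt/wt, and at 307, 340.1 and 306 CPM and at 220.3, 201 and 208 CPM in GR D/D. The log2 fold changes were 0.38 ± 0.06 and -0.60 ± 0.06, with an interaction of -0.98 ± 0.09 (adjusted p = 1.34e-08). Dusp1, the phosphatase that switches off p38 and JNK kinases, was at 47.7, 48.5 and 52.3 CPM and 62.9, 60.6 and 64.2 CPM in GR wt/wt, and at 54.1, 53.1 and 50.8 CPM and 38.4, 42.7 and 38.8 CPM in GR D/D. Dex stood above vehicle in 1 genotype and below it in the other, with no overlap in either. Oxr1, a gene of oxidation resistance, changed by 0.92 ± 0.05 and -0.17 ± 0.05, Pik3r1, a regulatory subunit of phosphoinositide 3-kinase, by 0.63 ± 0.06 and -0.28 ± 0.06, and Zfp697, a zinc finger gene, by 0.88 ± 0.07 and -0.26 ± 0.07. Rgs2, which dampens signals of G proteins, changed by 0.56 ± 0.11 and -0.48 ± 0.11, and Dusp5, a phosphatase of ERK, by -0.25 ± 0.07 and 0.43 ± 0.07. Without vehicle replicate 2 of GR wt/wt 21 genes were of opposite direction, 20 of them among the 31, and Dusp5 was not, since its GR wt/wt response was -0.15 (adjusted p = 0.207). Dusp5 also missed in GR wt/wt without Dex replicate 2 or 3 of that genotype (adjusted p = 0.0623 and 0.0803), while its interaction passed in all 12 fits without 1 library. The small GR D/D response of Oxr1 missed the threshold without Dex replicate 2 or 3 or vehicle replicate 2 of GR D/D, and that of Zfp697 without Dex replicate 3 of GR D/D (adjusted p = 0.165). The opposite directions of Il1rl1, Dusp1, Pik3r1 and Rgs2 held in all 12 fits.

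Nr3c1, which encodes GR, was at 64.5, 66.3 and 71.1 CPM with vehicle and at 48.1, 45.9 and 46.4 CPM with Dex in GR wt/wt. In GR D/D it was at 69.7, 78.8 and 74.1 CPM and at 70.5, 61.1 and 63.4 CPM. The vehicle levels did not pass a difference between the genotypes (log2 difference 0.14, adjusted p = 0.148). These counts do not show the point mutation and so do not check the genotype label. Dex lowered Nr3c1 by 0.52 on the log2 scale in GR wt/wt and by 0.19 in GR D/D. The GR D/D response missed the threshold without Dex replicate 2 or 3 or vehicle replicate 2 of that genotype (adjusted p = 0.195, 0.114 and 0.152). The interaction of 0.33 ± 0.09 (adjusted p = 0.0258) missed the threshold in 5 of the 12 fits without 1 library, those without Dex replicate 1 or vehicle replicate 1 of GR D/D and those without Dex replicate 2, Dex replicate 3 or vehicle replicate 3 of GR wt/wt, with adjusted p up to 0.1. Of the 20 tested genes on the list of receptor, chaperones and ligand access, Fkbp5, Hspa8 and Nr3c1 passed the interaction. Hspa8, a chaperone, had 0.51 ± 0.05 in GR wt/wt and 0.11 ± 0.05 in GR D/D.

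The functions were then read from 25 gene lists. Members and lists were chosen with earlier results of these data known. A share above that of all genes is therefore not a test of a function. Of the 2155 genes past the test in GR wt/wt, 409 passed the interaction. Each count is of tested members that passed without a fold limit, and it stands against 8.13% of all genes raised and 6.42% lowered in GR wt/wt, 6.18% raised and 6.34% lowered in GR D/D, and 3.44% past the interaction. Of 19 anti-inflammatory targets of glucocorticoids, 11 were raised in GR wt/wt and 6 in GR D/D, 3 and 4 were lowered, and 6 passed the interaction (31.6%). Besides Dusp1, Il1rl1 and Tsc22d3 they included Sphk1, a sphingosine kinase (1.73 ± 0.07 and 1.00 ± 0.07). The list had a median log2 response of 0.38 in GR wt/wt and 0.058 in GR D/D. Of 30 cytokines, chemokines and inflammatory enzymes, 11 were lowered in GR wt/wt and 9 in GR D/D, 1 was raised in each, and 9 passed the interaction (30%), 8 of them in the upward direction. Repression was weaker for Ccl2, the monocyte chemoattractant (-1.14 ± 0.10 and -0.34 ± 0.09), for Cx3cl1, fractalkine (-1.24 ± 0.11 and -0.33 ± 0.09), for Ch25h, cholesterol 25-hydroxylase (-2.43 ± 0.24 and -0.86 ± 0.13), and for Il11 (-2.11 ± 0.09 and -1.37 ± 0.08). Ccl2 and Cx3cl1 each counted as lost in 3 of the 12 fits without 1 library, all 3 without a GR D/D library. Il6, named after its values were seen, changed by -2.24 ± 0.18 and -1.06 ± 0.14. Ptgs2 of the same list was kept.

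In 4 signalling lists fewer members were lowered in GR D/D than in GR wt/wt, and whether these counts differed was not tested. Of 17 MAP kinase phosphatases and Sprouty genes, 9 were lowered in GR wt/wt and 5 in GR D/D, 2 were raised in each, and 5 passed the interaction (29.4%). Spry2, an inhibitor of growth factor signals, had -0.74 ± 0.07 and -0.13 ± 0.07, and Dusp10 had -0.62 ± 0.09 and 0.05 ± 0.09. Of 20 AP-1 and immediate early genes, 9 and 4 were lowered, 3 and 6 raised, and 5 passed the interaction (25%), all upward, among them Jun (-0.41 ± 0.04 and -0.11 ± 0.04) and Nr4a2 (-1.28 ± 0.11 and -0.57 ± 0.11). Of 21 cAMP phosphodiesterases and regulators, 8 and 5 were lowered, 2 and 2 raised, and 5 passed (23.8%). Pde4b, which degrades cAMP, fell by 1.67 in GR wt/wt and by 0.90 in GR D/D on the log2 scale. Rgs16 had -0.71 ± 0.04 and 0.09 ± 0.04, and Rgs4, not past the test in GR wt/wt (-0.05 ± 0.07), was raised by 0.96 ± 0.07 in GR D/D. Of 15 NF-kB subunits and inhibitors, 5 and 3 were lowered, 1 was raised in each, and 1 passed the interaction (6.67%), Relb, with -0.71 ± 0.09 and -0.10 ± 0.09. Nfkbia, which encodes the inhibitor IkB alpha, had 0.63 ± 0.08 and 0.24 ± 0.08, with an interaction whose adjusted p was 0.0509, and 0.028 without vehicle replicate 2 of GR wt/wt. Its GR D/D response (adjusted p = 0.0459) missed in 7 of the 12 fits without 1 library, with adjusted p up to 0.212. In those fits 0 members of the NF-kB list were raised in GR D/D. The interaction count of the AP-1 list was 3 without Dex replicate 3 of GR D/D, and its count raised in GR D/D was 3 without Dex replicate 2 or vehicle replicate 2 of that genotype. Without vehicle replicate 3 of GR D/D the interaction count was 8 in the cAMP list and 4 in the NF-kB list.

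**Figure D4:**
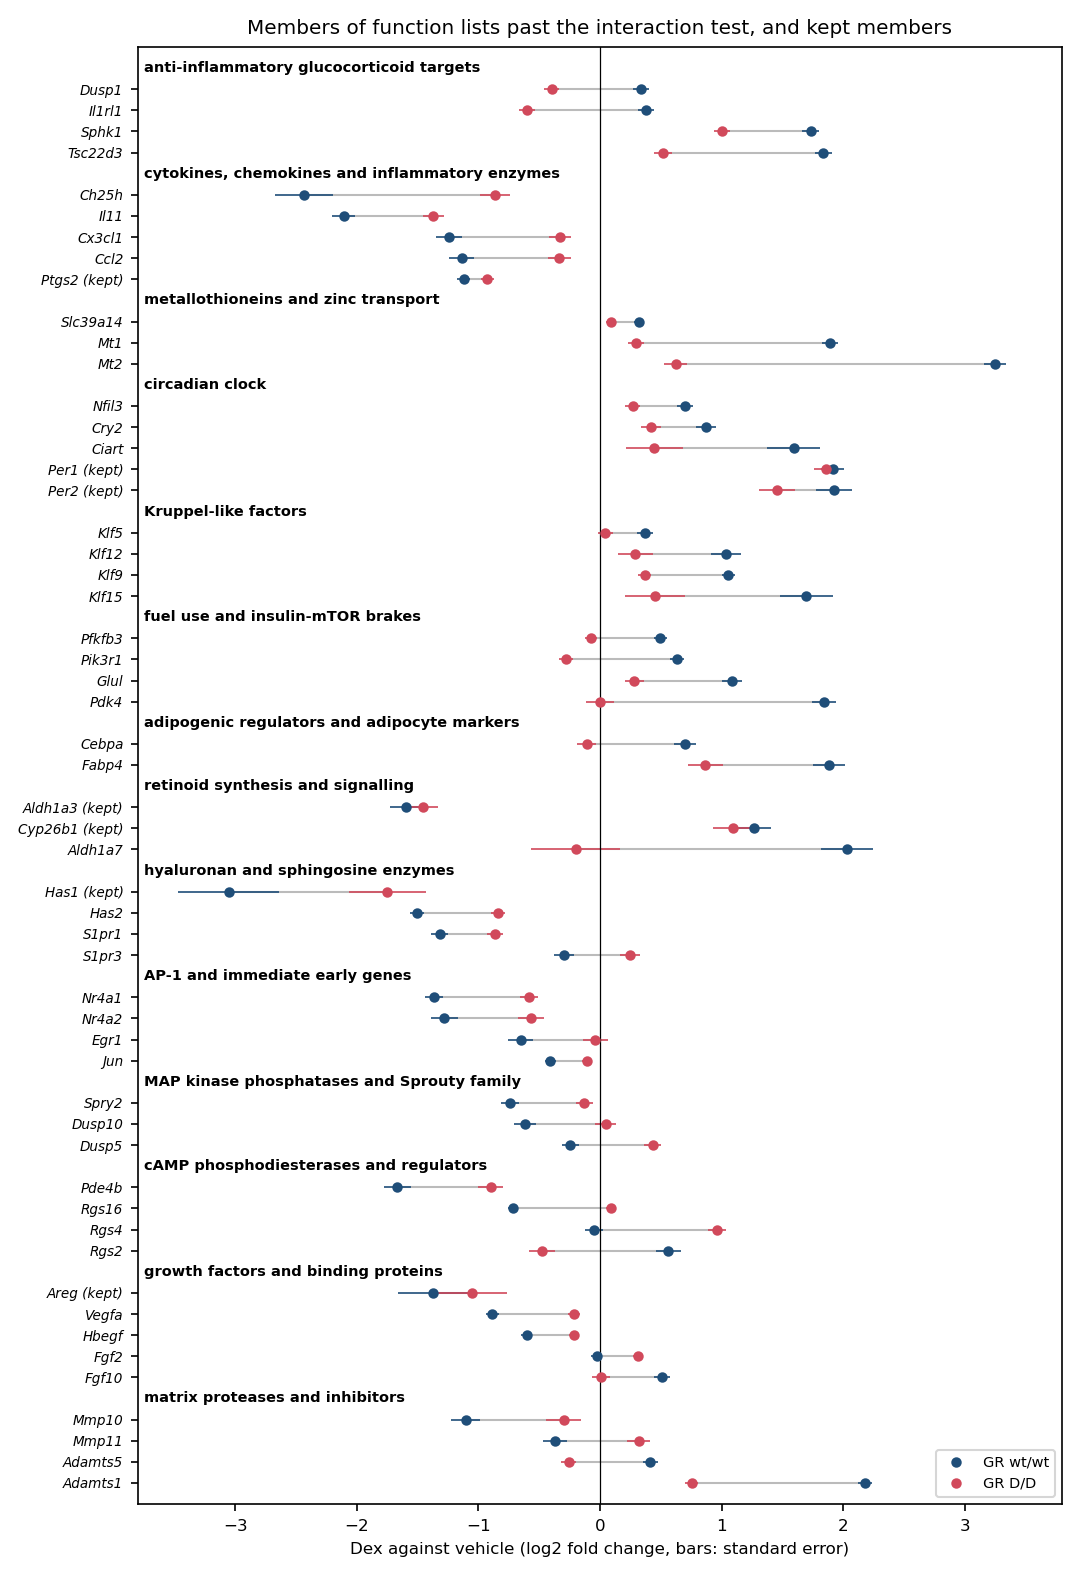
Dex against vehicle (log2 fold change, bars for the standard error) in GR wt/wt (blue) and GR D/D (red) for 54 genes of 14 function lists: up to 4 members of each list with the smallest interaction p that passed, and the kept members, each gene shown once and Zbtb16 left out. Red points lie nearer to 0 than blue points for metallothioneins, Kruppel-like factors and repressed cytokines, the points of Per1, Aldh1a3, Cyp26b1 and Ptgs2 lie close together, and those of Dusp1, Il1rl1, Rgs2 and Dusp5 lie on opposite sides of 0.

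Both metabolic lists held lost and weakened members and no kept one. Of 25 genes of fuel use and of the brakes on insulin and mTOR signalling, 9 were raised in GR wt/wt and 2 in GR D/D, 3 and 6 were lowered, and 7 passed the interaction (28%). Beside Pdk4 and Pik3r1 these included Glul, glutamine synthetase (1.08 ± 0.08 and 0.28 ± 0.08), and Pfkfb3, which sets the rate of glycolysis (0.50 ± 0.05 and -0.07 ± 0.05). Glul counted as lost without Dex replicate 1 or vehicle replicate 2 of GR D/D. Of 17 adipogenic regulators and adipocyte markers, 6 were raised in GR wt/wt and 3 in GR D/D, none was lowered, and 3 passed the interaction (17.6%). They were Cebpa, an adipogenic transcription factor (0.70 ± 0.09 and -0.11 ± 0.08, with vehicle levels higher in GR D/D by 1.08), Fabp4, a fatty acid carrier (1.88 ± 0.14 and 0.87 ± 0.14), and Zbtb16. Zbtb16, a zinc finger repressor that is a strong glucocorticoid target, had no count in the 3 GR wt/wt vehicle libraries and stood at 2.496, 1.99 and 2.35 CPM after Dex. In GR D/D it lay between 0.063 and 0.26 CPM in all 6 libraries.

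Of 20 clock genes, 7 were raised in GR wt/wt and 6 in GR D/D, 3 and 3 were lowered, and 3 passed the interaction (15%), Nfil3, Cry2 and Ciart. Without vehicle replicate 2 of GR wt/wt Cry2 (adjusted p = 0.0681) and Ciart (adjusted p = 0.152) missed, and 1 remained. In the 12 fits without 1 library Cry2 missed in 4 and Ciart in 8. Cry2 and Ciart encode clock repressors. Nfil3, a clock output factor, had 0.70 ± 0.07 and 0.27 ± 0.07. Per2 was kept like Per1, at 1.93 ± 0.15 and 1.46 ± 0.14, with an interval of the difference from -0.91 to -0.03 and an adjusted p of 0.361. Of 14 Kruppel-like factors, 6 were raised in GR wt/wt and 3 in GR D/D, none was lowered, and 4 passed the interaction (28.6%), Klf5, Klf9, Klf12 and Klf15. Klf15 missed it in 9, Klf5 in 8 and Klf12 in 5 of the 12 fits without 1 library, and without vehicle replicate 1 of GR wt/wt or Dex replicate 2 or 3 of GR D/D 1 of the 4 passed. Klf9, a repressor in glucocorticoid feed-forward circuits, had 1.05 ± 0.05 and 0.37 ± 0.06 and kept its class in every fit without 1 library. The retinoid list held 2 kept members and 1 lost one among 17 tested. Aldh1a3, which makes retinoic acid, had -1.59 ± 0.13 and -1.46 ± 0.12, Cyp26b1, which degrades it, had 1.27 ± 0.14 and 1.10 ± 0.17, and Aldh1a7 had 2.03 ± 0.21 and -0.20 ± 0.36 at low levels of 0.49 to 5.73 CPM. Of the list 4 were raised in GR wt/wt and 3 in GR D/D, 2 and 1 were lowered, and 1 passed the interaction (5.88%).

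Matrix and growth factor lists differed. Of 17 hyaluronan and sphingosine genes, 5 were lowered in GR wt/wt and 4 in GR D/D, 1 and 3 were raised, and 5 passed the interaction (29.4%), with S1pr1, a sphingosine-1-phosphate receptor, at -1.32 ± 0.07 and -0.86 ± 0.07 and S1pr3 at -0.30 ± 0.08 and 0.25 ± 0.08. Of 32 growth factors and binding proteins, 12 and 9 were lowered, 7 and 8 raised, and 8 passed (25%). Vegfa, the angiogenic factor, was lowered by 0.89 on the log2 scale in GR wt/wt and by 0.21 in GR D/D, and Fgf10 was raised by 0.51 ± 0.07 in GR wt/wt and had 0.01 ± 0.07 in GR D/D. Of 28 matrix proteases and inhibitors, 11 and 9 were lowered, 5 and 6 raised, and 5 passed (17.9%), among them Adamts5, an aggrecanase (0.41 ± 0.06 and -0.26 ± 0.06), and Mmp11 (-0.37 ± 0.10 and 0.32 ± 0.10). Of 42 regulators of BMP, TGF-beta and Wnt signals, 8 and 10 were raised, 9 and 6 lowered, and 4 passed (9.52%), among them Tgfbr1, a TGF-beta receptor, which rose more in GR D/D (0.31 ± 0.09 and 0.97 ± 0.08, and 0.48 and 0.97 without vehicle replicate 2 of GR wt/wt), and Wnt5a (0.07 ± 0.04 and 0.39 ± 0.04). Tgfbr1 missed in GR wt/wt without vehicle replicate 1 or 3 of that genotype (adjusted p = 0.114 and 0.0934), and its interaction passed in all 12 fits. S1pr3 and Mmp11 missed in GR wt/wt without vehicle replicate 2 of GR wt/wt (adjusted p = 0.0561 and 0.0525). Both also missed there without Dex replicate 1 of GR wt/wt (adjusted p = 0.14 and 0.101). The GR D/D rise of S1pr3 missed without Dex replicate 2 or 3 or vehicle replicate 1, 2 or 3 of GR D/D (adjusted p up to 0.207). That of Mmp11 missed without Dex replicate 2 or 3 or vehicle replicate 2 of GR D/D (adjusted p up to 0.189). The interactions of both passed in all 12 fits. Of the matrix proteases 1 was raised in GR D/D without Dex replicate 3 or vehicle replicate 2 of that genotype. The BMP, TGF-beta and Wnt list had 5 members lowered in GR wt/wt without Dex replicate 1 or 2 or vehicle replicate 1 or 3 of that genotype.

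The remaining lists varied in how many members passed. Among 22 collagens 1 passed the interaction (4.55%), Col11a1 of cartilage fibrils, at 1.88 ± 0.06 and 0.94 ± 0.06, with 8 raised in GR wt/wt and 7 in GR D/D and 2 and 1 lowered. Of 27 proteoglycan, elastic fibre and gap junction genes 0 passed in edgeR, where 5 had an unadjusted p of at most 0.05, and 0 and 5 did in DESeq2, with 3 raised in GR wt/wt and 6 in GR D/D and 2 lowered in each. Of 13 metallothioneins and zinc transporters 3 passed (23.1%), Mt1, Mt2 and the zinc transporter gene Slc39a14, of which Slc39a14 missed in 8 of the 12 fits without 1 library, with 3 raised in GR wt/wt and 2 in GR D/D and 1 and 5 lowered. Interaction passed for 2 of 16 genes of SGK kinases and ion transport (12.5%), 1 of 21 complement and acute-phase genes (4.76%), 1 of 23 interferon-stimulated genes (4.35%), 2 of 20 contractile and serum response factor targets (10%), 1 of 29 cell cycle genes (3.45%), and 2 of 22 genes of sterol and fatty acid synthesis (9.09%). In the last list 9 members were raised in GR wt/wt and 2 in GR D/D, and none and 1 were lowered. Among the cell cycle genes Ccnd1, cyclin D1, had 0.55 ± 0.05 and 0.19 ± 0.05, and Cdkn1c, the CDK inhibitor p57, had 0.77 ± 0.09 and 1.04 ± 0.09 with an interaction that did not pass (adjusted p = 0.342). Several of these small counts rested on single libraries. Atp1b1, which with Sgk1 made up the 2 of the SGK and ion transport list, missed in 10 of the 12 fits without 1 library (adjusted p up to 0.131). Ccn2, which with Myocd made up the 2 contractile genes, missed in 8, and Scd2, 1 of the 2 sterol and fatty acid genes, in 5. Ifi35, the interferon-stimulated gene, missed in 5. Without vehicle replicate 3 of GR D/D 5 collagens passed the interaction and 13 were raised in GR D/D, and 7 sterol and fatty acid genes were raised there, while without Dex replicate 3 or vehicle replicate 2 of GR D/D 3 collagens and none of the sterol genes were raised. Without vehicle replicate 1 of GR wt/wt 3 collagens were raised in that genotype. Over the 25 lists, the interaction count moved by over 1.5 times in at least 1 of the 12 fits for 12 lists. The count raised in GR wt/wt did so for 7 lists and the count lowered there for 12. In GR D/D the count raised did so for 11 lists and the count lowered for 15.

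The classes were followed into genotypes with libraries of their own. In GR D+L/D+L, where 3.32% of all genes were raised and 2.15% lowered at an adjusted p of at most 0.05, 3 of the 42 lost raised genes, 33 of the 41 weakened raised genes and 24 of the 39 kept raised genes passed in the same direction. Of lowered genes, 1 of 6 lost, 14 of 15 weakened and 24 of 34 kept did. The median log2 fold change of lost raised genes was 0.13 there, that of weakened raised genes 0.50 and that of kept raised genes 0.76. In GR L/L of run 2, where 8.74% of genes were raised and 9.14% lowered, 32 of the 41 tested lost raised genes were raised, with a median of 0.86. These include Pdk4 at 3.43 and Jade2 at 1.21. Both values are from run 2, where GR wt/wt passed in the same direction for 37 of the 41. Of the other raised genes tested in GR L/L, 36 of 41 weakened and 28 of 37 kept genes were raised. Of the lowered genes, 4 of 4 lost, 15 of 15 weakened and 27 of 34 kept genes were lowered. In GR ko/ko no member of any class passed, and no gene of the 14817 did in edgeR or in DESeq2, where 832 and 573 had an unadjusted p of at most 0.05.

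Replacing the GR wt/wt libraries by those of run 2 gave 2006 genes with an interaction, of which 51.7% were lower in GR D/D against 65.5% of the 510, with 208 lost and 69 kept genes. Only 27 of the 48 lost, 42 of the 56 weakened and 26 of the 73 kept genes held their class. Run and genotype cannot be told apart in that comparison.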

How the data were processed

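RNA was measured by sequencing in MEF cultures, and the authors aligned uniquely mapped reads to mm10 with HISAT2 (2.1.0) and deposited raw read counts per gene from featureCounts (2.0.0). The annotation and strand setting are not given in the sources used here, so overlapping and antisense genes and close gene copies are uncertain. The authors tested with DESeq2. All comparisons here start from those counts, with 15280166 to 19102035 counts per library, of which 99.92% lay in tested genes. The 55487 genes were reduced to 14817 by the filter of edgeR (4.0.16, R 4.3.3), scaled by TMM and fitted with the quasi-likelihood test over 24 run 1 libraries, with 16 residual degrees of freedom and Benjamini-Hochberg adjustment over all genes. Run 2 was fitted apart. Standard errors are the log2 fold change divided by the root of F, and intervals are at 95%. p-values measure the spread between libraries, which the authors describe as cultures from different mice. The spread shared over genes in run 1 was a coefficient of variation of 0.0499 beyond counting noise. In the 12 libraries Xist had 2464 to 5468 counts, and the Y-linked genes Ddx3y, Eif2s3y, Kdm5d and Uty had 0 to 15. Whether the libraries came from separate cultures was not tested, so the p-values are not shown to measure a spread between mice.

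Genes were named by p within each class (mean count of at least 50) and within 25 function lists. Members and lists were chosen with earlier results of these data known. DESeq2 (1.42.0), other scalings, filters and library sets and leaving out each library were tried. On simulated counts for the interaction (14397 genes), 98% of 2-fold and 100% of 4-fold differences were recovered, with 10 false calls. The changed genes had a mean count of at least 50 and responded in GR wt/wt alone. Of these simulated losses, 51% were classed as lost at 2-fold and 100% at 4-fold. No pair of libraries was a near copy (mean chi-square 1.62 to 29.4 over 12 pairs). Replicate numbers were not shown to pair the libraries of the 2 genotypes compared. There, correlations of deviations between vehicle and Dex libraries ran from -0.22 to 0.162 for 1 number and from -0.244 to 0.241 between numbers. In GR D+L/D+L and GR ko/ko the ranges were 0.041 to 0.216 and -0.171 to 0.0975. Every number of those genotypes correlated best with itself. The main fit did not pair their libraries, which shared the estimate of spread.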

Additional observations from a re-analysis of the deposited data

Results flagged for a closer look

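The Dex response differed between the genotypes by the interaction test for 510 genes, and 31 genes passed in opposite directions in the 2 genotypes. Among gained genes the log2 difference of responses was 1.26 for Inhbb, 1.31 for Ugdh and 1.03 for Mgp. Among genes of opposite direction it was -1.09 for Oxr1, -0.913 for Pik3r1, -1.14 for Zfp697 and -0.98 for Il1rl1. Groups of 3 libraries are too small for a test of single outlying libraries.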

How the results depend on the processing

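Of 132 gene results, 82 kept their direction and side of the threshold under all alternatives, as did 2456 of 2632 values. DESeq2 gave 512 interaction genes (2589 adjusted p not given). With the GR wt/wt libraries of run 2, 2006 genes had an interaction, 695 were called in GR wt/wt, and 208 were lost, 131 weakened and 27 gained, and the interaction reversed for Jun (-0.0407), Nr4a2 (-0.239) and Cdkn1c (-1.05). The cause was not tested. At least 10 counts in every library, which removes low genes, left 151 genes called in GR wt/wt, 68 in GR D/D, 44 kept and 8 gained. The fit of only the 12 libraries, with fewer samples, gave 7 gained genes. A log2 difference of at least 1 left 90 interaction genes, and adjusted p alone gave 2155 genes in GR wt/wt and 1854 in GR D/D. Taking responsive genes from run 2 gave 134 kept genes. Without 1 library, the interaction count ran from 392 to 670, GR wt/wt calls from 255 to 307, GR D/D calls from 127 to 164, lost from 42 to 53, weakened from 50 to 65, kept from 60 to 82 and gained from 6 (without vehicle replicate 2 of GR wt/wt) to 17, with 8 without Dex replicate 3 of GR D/D. Without vehicle replicate 3 of GR D/D 54.2% of interaction genes were lower, against 65.5%. With the replicate number as a block (replicate block), 521 genes had an interaction, 285 were called in GR wt/wt and 146 in GR D/D, and 43 were lost, 65 weakened, 69 kept and 11 gained. In these 2 genotypes the numbers were not shown to pair the libraries, and 2 of 6 correlated best with their own number. Over all run 1 genotypes 8 of 12 did, among them every number of GR D+L/D+L and GR ko/ko. Low counts limit the classes: undecided genes had a median mean count of 11.58.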
